A study of Homo sapiens with 4 samples.

Results

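Genes of glucose uptake and glycolysis were examined together with TXNIP in MIA PaCa-2 and PANC-1, 2 established human pancreatic cancer cell lines, after treatment with cannabichromene (CBC), a non-psychoactive cannabinoid of the cannabis plant. They were chosen by symbol as 10 of the 58233 genes in the count table, by a rule that uses no measured value, although earlier results of these data were known: the glucose transporters SLC2A1 and SLC2A3, the enzymes HK2, PFKFB3, PFKFB4, ALDOA, PGK1, ENO1 and LDHA, and TXNIP. MIA PaCa-2 cells received 35 μM CBC or PBS and PANC-1 cells received 30 μM CBC or PBS, and RNA was collected after 24 h, with 1 library per group and 4 libraries in all. The doses come from the study's methods, which speak of a vehicle control and of CBC dissolved in acetonitrile where the sample records name PBS, so an effect of the solvent and one of CBC cannot be told apart. Because each line received its own dose, a difference between the lines and a difference of dose cannot be told apart either.

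Glucose enters most cells through facilitative transporters of the SLC2A family, is trapped by phosphorylation by a hexokinase, and is broken down to pyruvate, which lactate dehydrogenase turns into lactate. Pancreatic cancers are known for high glucose uptake and lactate output, and many genes of the pathway are targets of the hypoxia-inducible factors. TXNIP, an arrestin-like protein, binds thioredoxin and restrains glucose uptake by promoting the internalization of glucose transporters, and its gene is known as a sensor of glucose phosphates through the transcription factor MondoA with its partner MLX.

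The libraries held 21742775 to 27903667 counts on genes, with the lowest total in the MIA PaCa-2 control and the highest in CBC-treated PANC-1 cells. Levels are given as CPM, that is counts relative to the size of the library, after scaling of the library sizes by the TMM method (trimmed mean of M-values), and a count of 3, taken as the limit that a count of 0 allows, was 0.110 to 0.135 CPM. The share of counts on mitochondrially encoded genes was 5.81% in the MIA PaCa-2 control and 3.86% after CBC, and 4.63% and 2.42% in PANC-1 cells. It was thus lower after CBC in both lines, together with the values below, and its part in them was not tested. The summed level of 5 epithelial markers was 3476, 2553, 2044 and 1202 CPM in the MIA PaCa-2 control, CBC-treated MIA PaCa-2, PANC-1 control and CBC-treated PANC-1 libraries, so the sum was lower after CBC in both lines, and its part in the values of the members was not tested. Of the defining markers, EPCAM had 0 counts in the MIA PaCa-2 control and 1 after CBC, and KRT7 had 2 and 52. The 4 blood cell markers and the 5 acinar and islet cell markers stayed under 1 CPM in every library, the endothelial markers summed to at most 2.20 CPM, and the fibroblast markers reached 134 CPM in the PANC-1 control through the collagen gene COL1A1 while DCN and LUM were at 0. In such bulk libraries fewer cells of a type and less RNA per cell cannot be told apart. SLC2A1, SLC2A3, PFKFB3, ALDOA, PGK1 and ENO1 each overlap an annotated antisense gene, whose reads could not be told apart from theirs because the strand setting of the counting was not given in the sources used here. The same genes, and also LDHA and PFKFB4, overlap an annotated gene on their own strand, which no strand setting would separate. HK2 and TXNIP overlap no annotated gene. These overlaps are of gene spans in GENCODE release 44, not in the Ensembl release 89 used for counting.

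After CBC treatment, HK2 and TXNIP rose and LDHA fell, each in the same direction in both lines, and SLC2A1 rose by close to 2-fold, while ENO1, ALDOA and PGK1 had lower values in both lines that did not pass the test. For TXNIP, HK2 and LDHA, promoter windows are shown next, with the short motifs for which these promoters are known. Matches of the other members are given below the sequences. The windows are the 250 bases before an annotated RefSeq transcription start in GRCh38.p14, read 5′ to 3′ on the gene's strand, and capitals mark a match on either strand to ACGTG (the core of the hypoxia response element), CACGTG (an E-box, every copy of which also holds ACGTG) or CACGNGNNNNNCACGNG (the paired E-box-like arrangement of a carbohydrate response element, which MondoA and MLX bind). For TXNIP the window before the first of its 2 starts is chr1:145996580-145996829 on the minus strand. HK2 has 2 windows, chr2:74833877-74834126 and chr2:74834920-74835169, both on the plus strand, and the window before the first of the 2 LDHA starts lies at chr11:18394313-18394562 on the plus strand.
TXNIP first start: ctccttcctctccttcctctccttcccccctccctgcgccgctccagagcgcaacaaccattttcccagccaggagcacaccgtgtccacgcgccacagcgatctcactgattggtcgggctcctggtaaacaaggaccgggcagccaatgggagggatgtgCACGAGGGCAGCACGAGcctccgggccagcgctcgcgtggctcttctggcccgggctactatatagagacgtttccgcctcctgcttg
HK2 first start: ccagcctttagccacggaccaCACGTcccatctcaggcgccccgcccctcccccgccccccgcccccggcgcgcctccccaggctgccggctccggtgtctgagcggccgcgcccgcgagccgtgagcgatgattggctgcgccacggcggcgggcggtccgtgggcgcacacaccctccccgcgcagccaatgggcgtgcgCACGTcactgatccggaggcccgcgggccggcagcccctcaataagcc
HK2 second start: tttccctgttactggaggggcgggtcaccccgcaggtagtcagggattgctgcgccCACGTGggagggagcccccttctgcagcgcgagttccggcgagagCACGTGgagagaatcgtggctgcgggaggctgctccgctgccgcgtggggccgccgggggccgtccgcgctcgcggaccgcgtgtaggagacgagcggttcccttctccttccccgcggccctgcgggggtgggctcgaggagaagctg
LDHA first start: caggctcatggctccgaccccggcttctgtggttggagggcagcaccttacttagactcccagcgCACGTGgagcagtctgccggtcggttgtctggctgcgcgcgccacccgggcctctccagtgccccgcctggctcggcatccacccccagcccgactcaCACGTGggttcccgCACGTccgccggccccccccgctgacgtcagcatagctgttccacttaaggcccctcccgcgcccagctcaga

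The printed TXNIP window held the paired motif once, with its first base 88 bases before the start, and the window before the second start held ACGTG at 162 bases. HK2 held ACGTG at 229 and 48 bases before its first start, and CACGTG at 194 and 149 bases before its second start. LDHA held CACGTG at 185 and 87 bases before its first start and a further ACGTG at 73 bases, and the window before its second start, chr11:18396101-18396350, held no match. Of 9 members with an entry in the RefSeq promoter table, which had 15 windows, ACGTG stood in 9 windows of 6 members, CACGTG in 4 windows of 4 members and the paired motif in 1 window. Among all 35116 windows of the same length, 18.5% held ACGTG, 6.34% held CACGTG and 0.0456%, or 16 windows, held the paired motif. PFKFB3 and ALDOA also held CACGTG before an annotated start and PGK1 held ACGTG, although none of these genes passed the edgeR test after CBC. The SLC2A1, PFKFB4 and ENO1 windows held no match, although SLC2A1 passed that test. A match describes letters in a window and shows no binding.

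**Figure D1:**
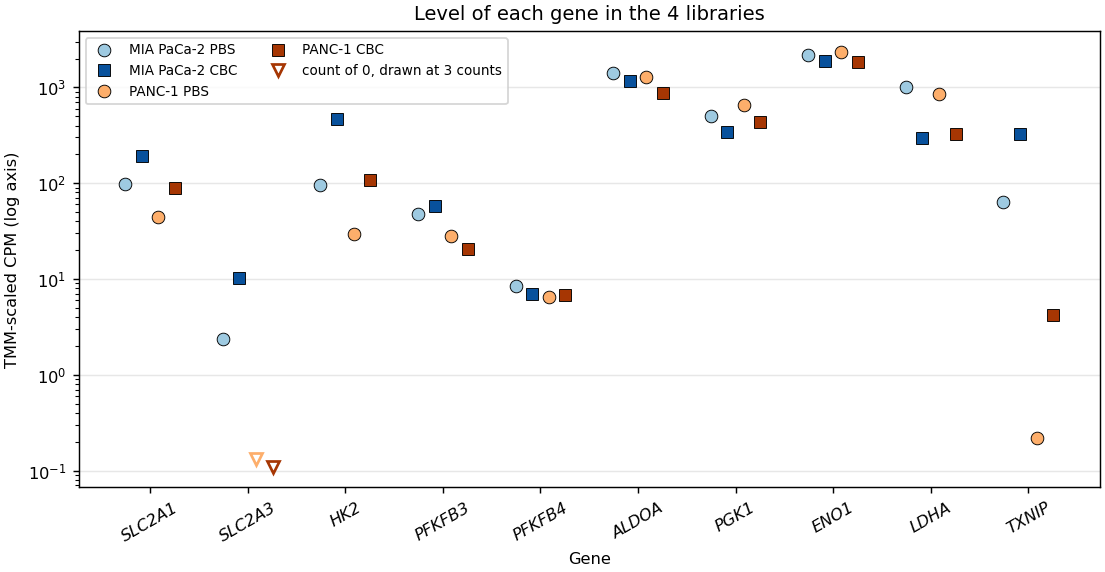
Level of each of the 10 genes in the 4 libraries, as TMM-scaled CPM on a log axis, with circles for PBS and squares for CBC, blue for MIA PaCa-2 and orange to red for PANC-1, and open triangles for a count of 0 drawn at the level of 3 counts. HK2, SLC2A1 and TXNIP lie higher after CBC in both lines and LDHA lies lower, while TXNIP in the PANC-1 control is at 0.220 CPM against 63.7 CPM in the MIA PaCa-2 control.

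Glucose transporters come first in the pathway. SLC2A1 (ENSG00000117394, chr1:42925353-42958893), which encodes GLUT1, the transporter of basal glucose uptake in most cells, had 2179 counts in the MIA PaCa-2 control and 4723 after CBC, and 1017 and 2420 counts in PANC-1 cells. In CPM these are 98.0 and 191 in MIA PaCa-2 and 44.7 and 88.6 in PANC-1 cells. Each CBC library was thus above the control of its own line, and the treated PANC-1 library stayed below the untreated MIA PaCa-2 library. The fold change was 1.95 in MIA PaCa-2 cells (95% interval 1.85 to 2.05) and 1.98 in PANC-1 cells (1.84 to 2.13). These and the following intervals are exact Clopper-Pearson intervals of the 2 counts and cover counting error only, since no line had a replicate. The difference between the responses of the lines was 0.02 on the log2 scale (interval -0.11 to 0.15). SLC2A3 (ENSG00000059804, chr12:7919230-8019007), which encodes GLUT3, a transporter with a high affinity for glucose, had 53 counts in the MIA PaCa-2 control and 255 after CBC, or 2.38 and 10.3 CPM, and no count in either PANC-1 library. It was 4.33-fold higher after CBC in MIA PaCa-2 cells (interval 3.21 to 5.93), and no fold can be given for PANC-1 cells. SLC2A14, the near copy of SLC2A3, had no count in any library, and the 3 SLC2A3 pseudogenes together had at most 3.92% of the counts of SLC2A3. Per kilobase of exon, SLC2A1 made up 97.8% of the summed SLC2A1 and SLC2A3 level in the MIA PaCa-2 control and 95.3% after CBC.

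HK2 (ENSG00000159399, chr2:74834127-74893359), the inducible hexokinase that many tumours use to phosphorylate glucose, had 2122 counts in the MIA PaCa-2 control and 11499 after CBC. PANC-1 cells had 668 counts in the control and 2926 after CBC. The levels were 95.4 and 465 CPM in MIA PaCa-2 and 29.4 and 107 CPM in PANC-1 cells, so that the treated PANC-1 library came to a level near that of the untreated MIA PaCa-2 library. HK2 was 4.87-fold higher in MIA PaCa-2 cells (interval 4.65 to 5.11) and 3.64-fold higher in PANC-1 cells (3.35 to 3.97), and the PANC-1 response was smaller by more than counting error, with a difference of -0.42 on the log2 scale (interval -0.56 to -0.28). HK1, the constitutive hexokinase, had levels of 126 and 115 CPM in MIA PaCa-2 and 197 and 192 CPM in PANC-1 without and with CBC. HKDC1, a further hexokinase family member, had 123 and 1414 counts in MIA PaCa-2 and 6 and 188 counts in PANC-1 cells. Compared per kilobase of exon, HK2 went from 45.1% to 72.2% of the summed level of the 3 genes in MIA PaCa-2 and from 14.8% to 38.0% in PANC-1 cells, and HKDC1 went from 3.66% to 12.4% and from 0.186% to 3.42%. HK2 was thus the most abundant hexokinase transcript per length in CBC-treated MIA PaCa-2 cells, whereas HK1 stayed ahead of it in both PANC-1 libraries. The summed level of the 3 genes was 35.8 and 109 CPM per kilobase in MIA PaCa-2 and 33.7 and 47.7 in PANC-1 cells. These lengths are the union of all annotated exons of a gene, which can exceed the transcript a cell makes.

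**Figure D2:**
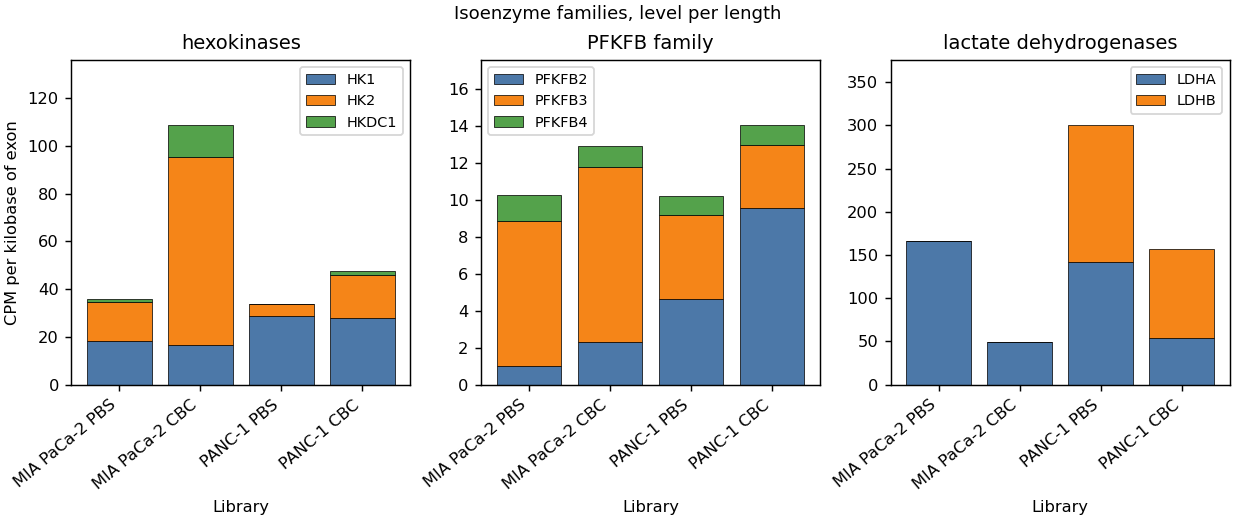
Stacked bars of the level per length (CPM per kilobase of exon) of the hexokinases HK1, HK2 and HKDC1, the PFKFB family and the lactate dehydrogenases in each of the 4 libraries, with no error bars because each group had 1 library. HK2 makes up 72.2% of the hexokinase bar in CBC-treated MIA PaCa-2 cells against 45.1% in their control, and LDHB is absent from both MIA PaCa-2 libraries.

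PFKFB3 and PFKFB4 encode bifunctional enzymes that make and remove the main allosteric activator of phosphofructokinase and so set the pace of glycolysis. PFKFB3 (ENSG00000170525, chr10:6144934-6254644) had 1069 and 1427 counts in MIA PaCa-2 and 633 and 565 counts in PANC-1 without and with CBC, or 48.1, 57.7, 27.8 and 20.7 CPM. It was 1.20-fold higher after CBC in MIA PaCa-2 cells (interval 1.11 to 1.30) and lower in PANC-1 cells, with a log2 ratio of -0.43 (interval -0.60 to -0.26). PFKFB3 was the member whose values went in opposite directions in the lines beyond counting error, with a difference of -0.69 on the log2 scale (interval -0.90 to -0.49). How many of all genes did the same was not computed. PFKFB4 (ENSG00000114268, chr3:48517684-48562015) had 189, 173, 146 and 184 counts in the same order of libraries, and its intervals included no change in both lines. The related PFKFB2, which is regulated by kinases such as AKT, moved from 227 up to 584 counts in MIA PaCa-2 and from 1068 to 2659 in PANC-1 cells. Per kilobase of exon, PFKFB2 moved from 9.78% to 18.0% of the summed level of the 3 PFKFB genes in MIA PaCa-2 and from 45.2% to 68.1% in PANC-1 cells. PFKFB3 held 76.7% and 73.1% of it in MIA PaCa-2 cells, and 44.6% and 24.1% in PANC-1 cells.

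In the 2 control libraries ENO1, ALDOA, LDHA and PGK1 were the most abundant of the 10 genes per length. ENO1 (ENSG00000074800, chr1:8861000-8879190), the enolase of most tissues, ranked first per length in all 4 libraries, with 414, 364, 449 and 354 CPM per kilobase of exon in the MIA PaCa-2 control, CBC-treated MIA PaCa-2, PANC-1 control and CBC-treated PANC-1 libraries. ALDOA (ENSG00000149925, chr16:30064164-30070457), the aldolase that splits the phosphorylated hexose, ranked second in all 4, with 372, 305, 336 and 230.2. PGK1 (ENSG00000102144, chrX:77910739-78129295), the kinase of the first ATP-yielding step, was at 93.0, 62.3, 119.8 and 80.3. Each of these genes had a lower level in the CBC library of its line. The log2 fold changes, on TMM-scaled CPM with a prior count of 2, were -0.19 and -0.34 for ENO1, -0.28 and -0.54 for ALDOA and -0.58 and -0.58 for PGK1 with MIA PaCa-2 given first. For PGK1 the responses of the lines differed by less than 0.01, with an interval of -0.05 to 0.05, while for ENO1 and ALDOA the PANC-1 value was lower by 0.15 and 0.26 and the counting intervals excluded 0.

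LDHA (ENSG00000134333, chr11:18394560-18408425), the subunit of lactate dehydrogenase that favours the reduction of pyruvate to lactate, had 22252 counts in the MIA PaCa-2 control and 7382 after CBC, and 19380 and 8840 counts in PANC-1 cells. In CPM these are 1001 and 298, and 852 and 323. The controls of the lines lay close together and well above both CBC libraries. LDHA was 3.35-fold lower after CBC in MIA PaCa-2 cells (interval 3.27 to 3.44) and 2.63-fold lower in PANC-1 cells (2.57 to 2.70). Per length it moved from the third to the sixth place among the 10 genes in MIA PaCa-2 cells, and from the third to the fourth in PANC-1 cells. Its 6 pseudogenes together had 84, 24, 106 and 24 counts, at most 0.547% of those of LDHA. LDHB, the other main subunit, which was chosen after its values were seen, had no count in either MIA PaCa-2 library and 10795 and 8448 counts in PANC-1 cells, so that the summed LDHA and LDHB level per kilobase went from 166 to 49.5 in MIA PaCa-2 and from 301 to 157 in PANC-1 cells. LDHB held 52.9% of that sum in the PANC-1 control and 65.9% after CBC. ALDOA, PGK1, ENO1 and LDHA together took 0.521% of all counts in the MIA PaCa-2 control and 0.396% after CBC, and 0.479% and 0.342% in PANC-1 cells.

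TXNIP (ENSG00000265972, chr1:145992435-145996579) had 1417 counts in the MIA PaCa-2 control and 8064 after CBC, but 5 counts in the PANC-1 control and 115 after CBC. The levels were 63.7 and 326 CPM in MIA PaCa-2 and 0.220 and 4.21 CPM in PANC-1 cells. Both PANC-1 libraries were thus far below both MIA PaCa-2 libraries, and each CBC library was above its control. TXNIP was 5.12-fold higher after CBC in MIA PaCa-2 cells (interval 4.84 to 5.42) and 19.1-fold higher in PANC-1 cells, where the 5 control counts leave a wide interval of 7.97 to 60.1. The difference between the lines was 1.90 on the log2 scale (interval 0.64 to 3.56), but with the deposited CPM and a pseudocount of 1 the log2 fold change was 2.09 in PANC-1 and 2.34 in MIA PaCa-2, which turns the direction of that difference. In CBC-treated MIA PaCa-2 cells TXNIP took the third place per length among the 10 genes, after ENO1 and ALDOA, at 90.5 CPM per kilobase. In CBC-treated PANC-1 cells it was at 1.17.

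**Figure D3:**
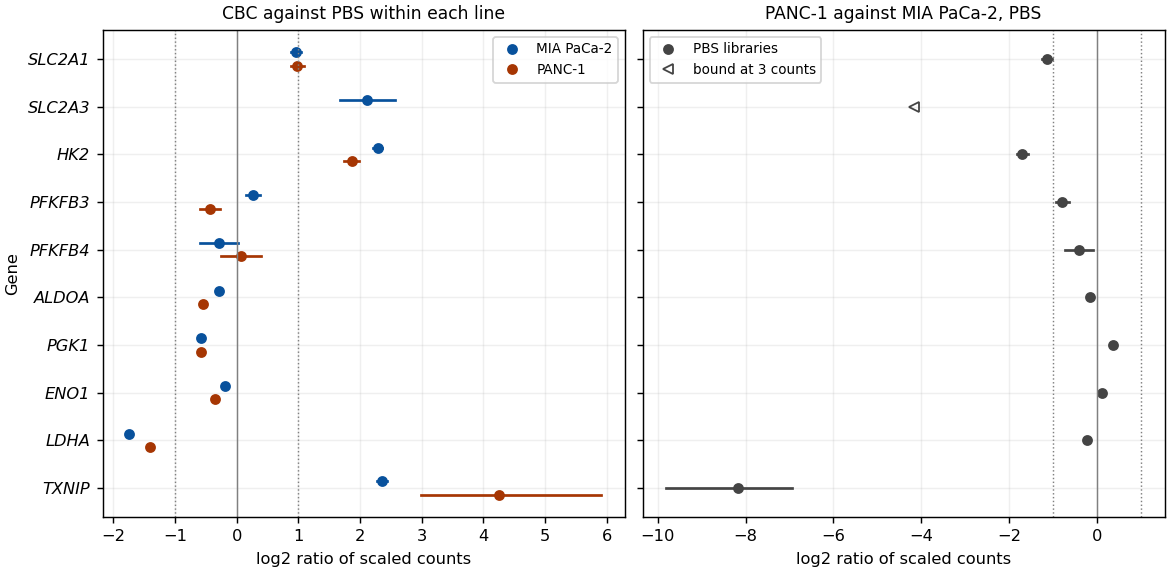
Left, log2 ratio of TMM-scaled counts without a prior count, CBC against PBS, for each gene in MIA PaCa-2 (blue) and PANC-1 (red) cells; right, PANC-1 against MIA PaCa-2 in the PBS libraries. Bars are exact 95% counting intervals, dotted lines mark 2-fold, and the open triangle is the bound for SLC2A3 from 3 counts. PFKFB3 lies on opposite sides of 0 in the lines, and the TXNIP interval in PANC-1 cells is the widest.

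A 2-fold change (log2 fold change above 1 or below -1) was used to count genes within each line, among genes that reached 1 CPM in either library. In MIA PaCa-2 cells, 3 of the 10 genes were higher past 2-fold (SLC2A3, HK2 and TXNIP), where 11.5% of 14001 tested genes were, and 1 was lower (LDHA), where 8.97% were. In PANC-1, 2 of 9 members tested were higher (HK2 and TXNIP), where 7.71% of 14091 tested genes were, and 1 was lower (LDHA), where 7.03% were. The counts of higher genes lie above the background and those of lower genes close to it, in a list of only 10 genes. The median log2 fold change of the members was 0.04 in MIA PaCa-2 and -0.34 in PANC-1 cells, beside -0.01 and 0.02 over all tested genes. SLC2A1 lay just under the threshold in both lines and passed it in both when counts were divided by library totals alone. TXNIP was not counted in PANC-1 cells when 1 CPM was required in both libraries.

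The treatment effect common to both lines was tested in edgeR (quasi-likelihood test, cell line as a block), with 1 residual degree of freedom. Of 16381 genes tested, 2.26% were called higher and 2.45% lower at a Benjamini-Hochberg adjusted p under 0.05. Among the 10 genes, 3 were called higher and 1 lower. In this edgeR test, HK2 rose with a log2 fold change of 2.08 (SE 0.22, adjusted p = 0.00657), and it was higher in both lines. TXNIP rose by 2.84 on the same log2 scale (SE 0.37, edgeR adjusted p = 0.0123), also in both lines. SLC2A1 rose by 0.98 (SE 0.20, edgeR adjusted p = 0.0388), and this call was lost with DESeq2 size factors. LDHA was the gene that fell, with a log2 fold change of -1.56 (SE 0.18, edgeR adjusted p = 0.00865) and a lower level in both lines. SLC2A3 had a log2 fold change of 2.11 (SE 0.66) that rests on MIA PaCa-2 cells alone and was not called (edgeR adjusted p = 0.135). PGK1, at -0.57 (SE 0.17), was lower in both lines and was not called by edgeR (adjusted p = 0.111), although DESeq2's Wald test and edgeR without the filter on low counts called it. ALDOA, ENO1, PFKFB3 and PFKFB4 were not called, with edgeR adjusted p-values of 0.215, 0.377, 0.912 and 0.910. As each line is 1 pair of libraries, the test sets the effect of CBC against the disagreement between the lines. With 1 residual degree of freedom per gene, edgeR draws that variance towards a value estimated over all genes tested. The adjusted p-values therefore rest on this shared value as well as on the gene itself. All 4 calls were lost when the cell line was left out of the fit. With 1 library for each line and treatment, whether the responses differ between the lines could not be tested. In 6 of 9 genes (HK2, PFKFB3, ALDOA, ENO1, LDHA and TXNIP) the counting interval of the difference excluded 0. The share of all genes for which this holds was not computed, so this count has no background to be read against. Such intervals narrow as counts grow. For ENO1, with 46920 to 53280 counts per library, a difference of -0.15 (interval -0.18 to -0.13) was enough to exclude 0.

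At baseline, among the 10 members, PANC-1 cells had less SLC2A1, SLC2A3, HK2 and TXNIP than MIA PaCa-2 cells. The members PFKFB3, PFKFB4, ALDOA, PGK1, ENO1 and LDHA differed by less than 2-fold. Other genes of the pathway are not covered by this statement. These values use the same PBS libraries as the comparisons with CBC. TXNIP was 289.8-fold lower in the PANC-1 control (interval 124 to 894), HK2 was 3.25-fold lower (2.98 to 3.55) and SLC2A1 was 2.19-fold lower (2.03 to 2.36). SLC2A3, with no count in PANC-1 cells, was at least 18.1-fold lower, taken against 3 counts in that library. In all, 4 of the 10 genes were lower past 2-fold in PANC-1 cells, where 18.0% of 14805 tested genes were, and 0 were higher, where 24.0% were. SLC2A3 and TXNIP passed the filter through MIA PaCa-2 alone, and with 1 CPM required in both libraries the count of lower genes was 2. The other log2 differences ran from -0.79 for PFKFB3 and -0.40 for PFKFB4 over -0.23 for LDHA, -0.15 for ALDOA and 0.12 for ENO1 to 0.36 for PGK1. Dividing by library totals alone moved the median of all genes by -0.13 in this comparison and turned the ENO1 value to -0.02.

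The line effect over both treatments, from the same edgeR fit, called 5 of the 10 genes lower in PANC-1 cells, where 21.7% of all genes tested were, and 0 higher, where 25.1% were. Of the members with counts in every library, TXNIP had the largest fitted difference, with a log2 value of -6.86 (edgeR adjusted p = 1.87e-05), and was lower in PANC-1 under both treatments. HK2 followed with -1.97 (edgeR adjusted p = 0.00031), then PFKFB3 with -1.19 (0.00872) and SLC2A1 with -1.18 (0.00268). SLC2A3 was also called (edgeR adjusted p = 0.000364), but its fitted value depends on the prior count because PANC-1 cells had none. SLC2A3 and TXNIP passed the filter on low counts only with their MIA PaCa-2 libraries, where they are high. The direction of their calls was thus partly set by the filter, and the count of 5 includes them. For LDHA, ENO1, ALDOA, PGK1 and PFKFB4 no difference between the lines was called. This test sets the lines against each other over 2 libraries each and so also takes in their different doses.

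Genes around the 10 members were examined in 8 lists of 111 genes, of which 11 had no count and 86 entered the edgeR test. Of these, 4 were called higher after CBC (HKDC1, PFKFB2, PCK2 and VEGFA) and 2 lower (PGAM1 and PKM), beside the background of 2.26% and 2.45%. Among the 12 other hexose transporters, 0 of the 7 that entered the test were called in either direction. The median log2 fold change was -0.55 over the 5 that reached 1 CPM in either MIA PaCa-2 library and -0.21 over 4 in PANC-1 cells. Medians of the lists below were likewise taken over genes at 1 CPM in either library of a line, and not over those that entered the edgeR test. SLC2A6, a lysosomal hexose transporter, had levels of 42.5 and 43.4 CPM in MIA PaCa-2 and 12.8 and 14.2 CPM in PANC-1 without and with CBC.

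Of 27 other glycolytic enzymes, 18 entered the test, and 2 were called higher and 2 lower, with median log2 fold changes of -0.14 and -0.33 in the lines. HKDC1 rose by 3.80 on the log2 scale (SE 0.40, edgeR adjusted p = 0.00657) and PFKFB2 by 1.13 (SE 0.23, edgeR adjusted p = 0.0373), both higher in both lines. PGAM1, the mutase between the PGK1 and ENO1 steps, fell with a log2 fold change of -1.03 (SE 0.20, edgeR adjusted p = 0.0337). It had levels of 172 and 74.3 CPM in MIA PaCa-2 and 276 and 153 CPM in PANC-1 cells. PKM, the pyruvate kinase before the lactate dehydrogenase step, was named after its values were seen and fell with a log2 fold change of -0.78 (SE 0.17, edgeR adjusted p = 0.0436), from 2469 to 1228 CPM in MIA PaCa-2 and from 2285 to 1546 CPM in PANC-1 cells.

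For the handling of pyruvate and lactate, 0 of 15 genes were called in either direction, with medians of -0.54 and -0.37. The named genes of this list were PDK2, a kinase that inhibits pyruvate dehydrogenase, at -1.24 and -0.70 in MIA PaCa-2 and PANC-1 cells, PDP1, the opposing phosphatase, at 0.53 and 1.28, and MPC2, a subunit of the mitochondrial pyruvate carrier, at -0.94 and -0.56, all on the log2 scale. In gluconeogenesis and glycogen metabolism, 1 of 10 genes was called higher and 0 lower, with medians of -0.51 and -0.10. This was PCK2, the mitochondrial enzyme that makes phosphoenolpyruvate, which moved from 85.9 up to 215 CPM in MIA PaCa-2 and from 18.1 to 99.8 CPM in PANC-1 cells (log2 fold change 1.89, SE 0.29, edgeR adjusted p = 0.0184). GYS1, the muscle-type glycogen synthase, was at -0.50 and -1.03 and PGM1, a phosphoglucomutase, at -1.02 and -0.31, and neither was called. The pentose phosphate pathway had medians of -0.01 and -0.01 and 0 of 7 genes called, with PGD, a dehydrogenase of its oxidative branch, at 0.45 and 0.35 and the transketolase TKT at -0.15 and -0.60.

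**Figure D4:**
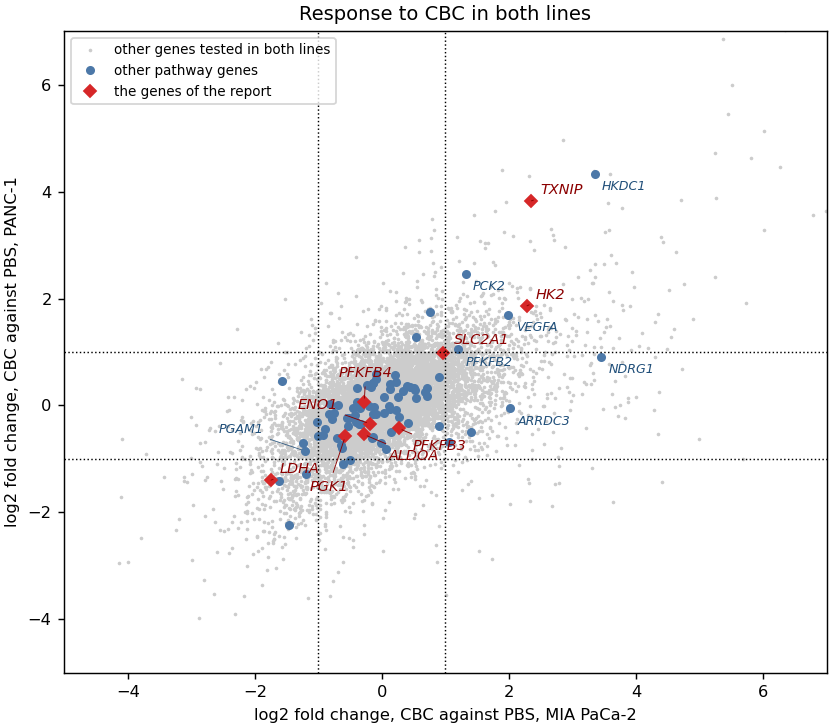
Log2 fold change (prior count 2) after CBC in MIA PaCa-2 cells (horizontal axis) against that in PANC-1 cells (vertical axis) for the 12502 genes tested in both lines, with 6 genes outside the axes, the 9 members tested as red diamonds and the other pathway genes as blue circles. Dotted lines mark 2-fold, and TXNIP, HK2, HKDC1 and VEGFA lie in the upper right corner, LDHA in the lower left and ARRDC3 near 0 in PANC-1 cells alone.

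Genes of the arrestin family with MondoA and thioredoxin had medians of 0.33 and 0.26, and 0 of 7 were called. ARRDC3, a paralog of TXNIP, moved from 495 up to 2233 counts in MIA PaCa-2 cells but from 1346 to 1556 in PANC-1 cells, or 2.02 and -0.06 on the log2 scale (edgeR adjusted p = 0.275 over both lines). ARRDC2 was at 0.68 and 0.25 and TXN, the thioredoxin that TXNIP binds, at 0.33 and 0.28. ARRDC4, the paralog most like TXNIP in its control by glucose, was looked at after its values were seen and had no count in MIA PaCa-2 and 6 and 35 counts in PANC-1 cells. Of the arrestin family genes that entered the test, TXNIP was thus the one called after CBC. A rise past 2-fold within a line was not limited to TXNIP, as ARRDC3 passed it in MIA PaCa-2 cells. ARRDC4, which did not enter the edgeR test, passed it in PANC-1 cells with a log2 fold change of 1.98 from low counts.

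In the lists for hypoxia, 0 of 7 hypoxia-inducible factors and oxygen sensors were called, with medians of -0.09 and -0.02. EGLN1, a prolyl hydroxylase, was at -0.84 and -0.16, the ubiquitin ligase subunit VHL at 0.23 and 0.45 and the factor subunit ARNT at 0.12 and 0.39. Of 15 hypoxia targets outside glycolysis, 1 was called higher and 0 lower, with medians of 0.25 and 0.32. It was VEGFA, the angiogenic growth factor, which moved from 97.7 up to 388 CPM in MIA PaCa-2 and from 63.6 to 205 CPM in PANC-1 cells (log2 fold change 1.85, SE 0.20, edgeR adjusted p = 0.00809). NDRG1 was at 3.45 and 0.90 (edgeR adjusted p = 0.0798) and MXI1 at 0.75 and 1.74 (0.0770), and neither passed. HK2 and SLC2A1, which are targets of the same factors, were called higher with VEGFA while LDHA, also a target, was called lower and PGK1 was not called. The part of these factors in the values was not tested.

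The 5 genes whose centred log2 CPM over the 4 libraries lay nearest to that of TXNIP, among 10067 genes with a mean of 10 CPM or more, were ROBO4, ADTRP, VEPH1, FZD8 and CXCL8, at Euclidean distances of 0.813, 1.29, 1.53, 2.08 and 2.15. ROBO4, the nearest, had 1309 and 5378 counts in MIA PaCa-2 and 1 and 71 counts in PANC-1 cells. As for TXNIP, the gap between the lines made up most of its pattern, with the increase after CBC on top of it. In MIA PaCa-2 cells the log2 fold changes of ADTRP, VEPH1, FZD8 and CXCL8 were 2.44, 0.77, 0.37 and 1.97, against 2.35 for TXNIP. The 5 genes thus do not all share the size of its increase. In the PANC-1 control ADTRP, VEPH1, FZD8 and CXCL8 had 0, 7, 2 and 35 counts. This likeness is a description over 4 libraries that share their 2 lines.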

How the data were processed

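Messenger RNA of 4 libraries (2 cell lines, PBS or CBC, 24 h) was sequenced by the authors. Reads were trimmed (cutadapt 2.7), aligned with STAR to GRCh38 and counted with HTSeq per gene of Ensembl release 89. The version of STAR and the strandedness and overlap mode used in HTSeq were not given in the sources used here. The deposited table holds raw counts for 58233 genes. The authors also deposited a normalized signal, which was checked to equal the counts over TMM-scaled library sizes, with a largest relative difference of 6.84e-09. Gene symbols, positions and exon lengths came from GENCODE release 44 on the same build (57392 genes matched), and promoter windows from RefSeq.

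All results were computed from the counts with edgeR 4.0.16 in R 4.3.3 (TMM, prior count 2), with DESeq2 1.42.0 as an alternative and scipy 1.17.1 for Clopper-Pearson 95% intervals, which cover counting error only. No test within a line was possible. The quasi-likelihood test was fitted to 16381 genes with the cell line as a block and Benjamini-Hochberg adjustment over all of them. It was also run on simulated data that gave each planted change equally to both lines. Such data do not cover responses that differ between the lines. Libraries were paired by cell line, and the 2 libraries of a line deviated together from the means of their treatments (r = 0.923, taken over genes). The biological coefficient of variation that edgeR estimated was 23%. With no replicate in any group, it reflects how far the responses of the 2 lines differed, not variation between replicates. Nothing says that the libraries came from separate cultures, so p-values measure the spread between these libraries, with the variance moderated over all genes. Each SE was derived from the log2 fold change and the test statistic.

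The 10 members, the gene lists and the tests were chosen with earlier results of these data known. The text names all members, of each other list the 3 genes with the largest mean log2 fold change in either direction among those averaging 10 CPM or more, the pseudogenes and near copy of members, and the 5 genes most like TXNIP. A gene that this rule also picks is not reported here. HK1, LDHB, PKM and ARRDC4 lie outside this rule and were named after their values were seen. Alternatives changed the scaling, the prior count or pseudocount, the filter on low counts, the block and the tool.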

Additional observations from a re-analysis of the deposited data

Results flagged for a closer look

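PFKFB3 was higher after CBC in MIA PaCa-2 cells (1069 to 1427 counts) and lower in PANC-1 cells (633 to 565 counts), a difference between the lines of -0.69 on the log2 scale. It is listed because the libraries of the lines went in opposite directions. The share of all genes that did so was not computed, and genes outside the members did so too, such as ADM at 1.41 and -0.49. The difference was not tested, since each line had 1 library per treatment, and the lines received different doses. PFKFB4 also had values on opposite sides of 0 (-0.28 and 0.07), but both counting intervals included 0.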

How the results depend on the processing

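The pairing by cell line decided the test of CBC: with no replicate block, 0 of the 10 genes were called by edgeR instead of 4 (1 at an unadjusted p under 0.05, and 0 instead of 771 over all genes), and the fitted PFKFB3 value turned from -0.07 to 0.0662 on the log2 scale. Across the other settings 3 to 6 members were called, with HK2, LDHA and TXNIP in each, SLC2A1 in all but the one with DESeq2 size factors, PGK1 added by DESeq2's Wald test and SLC2A3 and PGK1 added without the filter on low counts. Over all genes, DESeq2 called 1296 and edgeR without the filter 2063. Leaving treatment out of the line test left 3 of 5 members called (SLC2A3, PFKFB3 and TXNIP) and 4251 instead of 7652 genes. The line value of ENO1, which was not called, turned from -0.02 to 0.0218 with DESeq2 size factors and 0.0392 without the filter. At baseline, requiring 1 CPM in both libraries left 2 of 4 genes past 2-fold, because SLC2A3 and TXNIP did not reach it in PANC-1 cells. No other setting reversed the direction of a called member. The scaling alternatives for the difference between the lines were chosen after seeing the data, and its interval excluded 0 in the same 6 genes under each. These intervals cover counting error only, and the share over all genes was not computed. Leaving out either line leaves no residual degree of freedom, so only the values of the other line remain. Depth limits SLC2A3 in PANC-1 cells, with no count and so no fold, and TXNIP there, with 5 counts in the control and a fold of 7.97 to 60.1.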
